A study of Mus musculus with 10 samples.

Results

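Of the 53447 genes listed for each cerebellar library, 6 protein-coding genes are described here, *Cabp7*, *Nos1ap*, *Vipr1*, *Etnppl*, *Rnpepl1* and *Mipol1*. They were selected on their small unadjusted p-values in a comparison of log2 TPM between mutant and WT cerebella, so their difference between the genotypes is the reason for the choice and not a finding. RNA came from the cerebella of 5 *Dscam* del17/del17 and 5 control mice at P21, called mutant and WT here, with 1 library per mouse. The mutants are homozygous for a spontaneous loss-of-function deletion in *Dscam*, which encodes a cell adhesion molecule of neurons. They carry this deletion in every cell of the body, and RNA of the gene was still measured. Both genotypes are of BALB/c strain by their labels, since the stock was crossed to this strain, and the controls were littermates. Both sexes were used and the labels give no sex. *Dscam* itself had 5.11, 5.42, 4.53, 3.73 and 3.05 TPM (the deposited expression unit, a level scaled per library and per transcript length) in mutant libraries 1 to 5, against 8.04, 8.43, 6.79, 9.05 and 6.29 TPM in WT libraries 1 to 5, and all mutant libraries lay below all WT libraries.

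The 6 genes belong to several systems. Calcium that enters a neuron is read by small binding proteins with EF-hand folds, and nitric oxide made by neuronal nitric oxide synthase spreads to neighbouring cells and raises cyclic GMP. *Cabp7* and *Nos1ap* encode proteins of these systems. *Vipr1* encodes VPAC1, a receptor through which the peptides VIP and PACAP raise cyclic AMP. *Etnppl* encodes an enzyme of phospholipid metabolism, *Rnpepl1* encodes an aminopeptidase and *Mipol1* encodes a coiled-coil protein whose cerebellar function is little described.

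Promoter sequences were taken from RefSeq on GRCm38.p6 for 5 of the 6 genes (all but *Mipol1*), as the 250 bases before a transcription start. The sequences of *Cabp7* (chr11:4747180-4747429, minus strand), *Etnppl* (chr3:130617198-130617447, plus strand, the first of its starts) and *Vipr1* (chr9:121642466-121642715, plus strand) are shown because they come from genes of both directions of difference and include the windows with the fewest CpG dinucleotides, which are in capitals, and with many.
Cabp7: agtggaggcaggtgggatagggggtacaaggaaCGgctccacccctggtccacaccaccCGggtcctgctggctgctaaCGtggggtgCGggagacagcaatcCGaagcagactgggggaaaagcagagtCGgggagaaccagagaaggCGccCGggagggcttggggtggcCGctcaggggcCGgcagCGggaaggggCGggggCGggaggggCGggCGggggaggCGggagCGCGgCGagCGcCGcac
Etnppl: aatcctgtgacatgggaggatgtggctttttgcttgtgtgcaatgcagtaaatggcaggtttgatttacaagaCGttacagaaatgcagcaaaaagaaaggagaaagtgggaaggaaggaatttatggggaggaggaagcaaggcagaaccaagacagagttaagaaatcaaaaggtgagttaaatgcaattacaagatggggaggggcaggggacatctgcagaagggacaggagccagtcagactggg
Vipr1: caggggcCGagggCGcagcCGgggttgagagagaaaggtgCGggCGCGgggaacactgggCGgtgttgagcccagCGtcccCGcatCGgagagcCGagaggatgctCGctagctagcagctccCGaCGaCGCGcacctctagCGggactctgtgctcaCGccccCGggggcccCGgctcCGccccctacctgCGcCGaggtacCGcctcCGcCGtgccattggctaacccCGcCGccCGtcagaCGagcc
The *Cabp7* window held 21 CpG dinucleotides and the *Vipr1* window 30, whereas that of *Etnppl* held 1. Among 32851 RefSeq promoters the median was 6, and 83.7%, 94.1% and 7.87% of them had fewer CpG dinucleotides than *Cabp7*, *Vipr1* and *Etnppl*. *Rnpepl1* had 35 and the 2 starts of *Nos1ap* 33 and 5. On either strand, none of these windows held the cyclic AMP response element TGACGTCA (in 1.55% of all promoters), the TATA box TATAAA (12.4%) or the E-box CACGTG (6.02%). The short form TGACG, which overlaps the first of these, was in the *Vipr1* window and in 17.8% of all promoters. The start of *Cabp7* in RefSeq lies upstream of that in GENCODE M21, whose gene positions are given below.

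Sequencing depth cannot be read from TPM and is unknown here. The listed genes summed to 775148 to 805869 TPM in mutant libraries and to 684771 to 838532 TPM in WT libraries, with the lowest sum in WT library 5. This library also had the fewest genes at 0.5 TPM or more, 15623 against 17101 to 17763 in the other libraries, and the lowest sum of mitochondrially encoded mRNAs, at 15206 TPM. The cerebellar markers *Gabra6* of granule cells and *Pcp2* of Purkinje cells were at 238 TPM or more in every library, while the hindbrain gene *Hoxa5* was listed at 0 in all 10. Several marker lists leaned to one side between the genotypes, with no gene past the adjusted threshold. Over all genes tested, 55.99% had a log2 fold change above 0. WT library 5 gave the lowest sum in the oligodendrocyte, red blood cell, brainstem and midbrain, Purkinje cell and mitochondrial lists. Oligodendrocyte markers had log2 fold changes above 0 in 12 of 12 genes and summed to 7475 to 8800 TPM in mutant and 5830 to 8482 TPM in WT libraries. Red blood cell genes were above 0 in 5 of 5 (1536 to 2698 TPM in mutant and 1065 to 1795 TPM in WT libraries), and brainstem and midbrain markers in 5 of 6 measured of 19 listed (22.8 to 37.3 TPM in mutant and 10.7 to 37.2 TPM in WT libraries). Granule cell markers were below 0 in 9 of 10 (1896 to 2055 TPM in mutant and 1991 to 2516 TPM in WT libraries). Purkinje cell markers were above 0 in 11 of 12 (6710 to 8205 TPM in mutant and 6319 to 7736 TPM in WT libraries), and markers of molecular layer interneurons and Golgi cells in 10 of 11 (796 to 900 TPM in mutant and 732 to 799 TPM in WT libraries). Mitochondrially encoded mRNAs were above 0 in 13 of 13 (34717 to 44973 TPM in mutant and 15206 to 44670 TPM in WT libraries). The part of these lists in the differences of the 6 genes was not tested. In bulk tissue, fewer cells of a type and less RNA per cell cannot be told apart.

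Of the 17168 genes with at least 0.5 TPM in at least 5 libraries, 0 passed an adjusted p of 0.05 in limma, the linear model used on log2(TPM + 0.1), and 953 (5.55%) had an unadjusted p under 0.05, 2.29% higher and 3.26% lower in the mutant, and all 6 genes had one by their choice. All 6 genes passed the filter on low values, *Mipol1* in 5 mutant and 3 WT libraries and the others in all 10. Their unadjusted p-values ran from 0.000202 for *Cabp7* to 0.000756 for *Vipr1*, and the adjusted p was 0.779 for each of them. They took places 1 to 5 and 7 among the 13538 protein-coding genes ordered by p. *Mobp*, a myelin gene in place 6, is not among them, with 945 TPM on average in mutant and 677 TPM in WT libraries. The next gene after *Vipr1* was *Smpd2*, with 9.44 TPM in mutant and 15.6 TPM in WT libraries. Mutant and WT libraries did not overlap in 6 of the 6 genes, 4 of them higher and 2 lower in the mutant, where 1.22% of all genes tested did not overlap, 0.419% higher and 0.798% lower. Since the choice rested on this contrast, nothing is read from these counts. For the same reason, the fold changes and ratios given below for the 6 genes tend to be too large. Their intervals exclude 0 by the choice and cannot be read at their stated level.

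**Figure D1:**
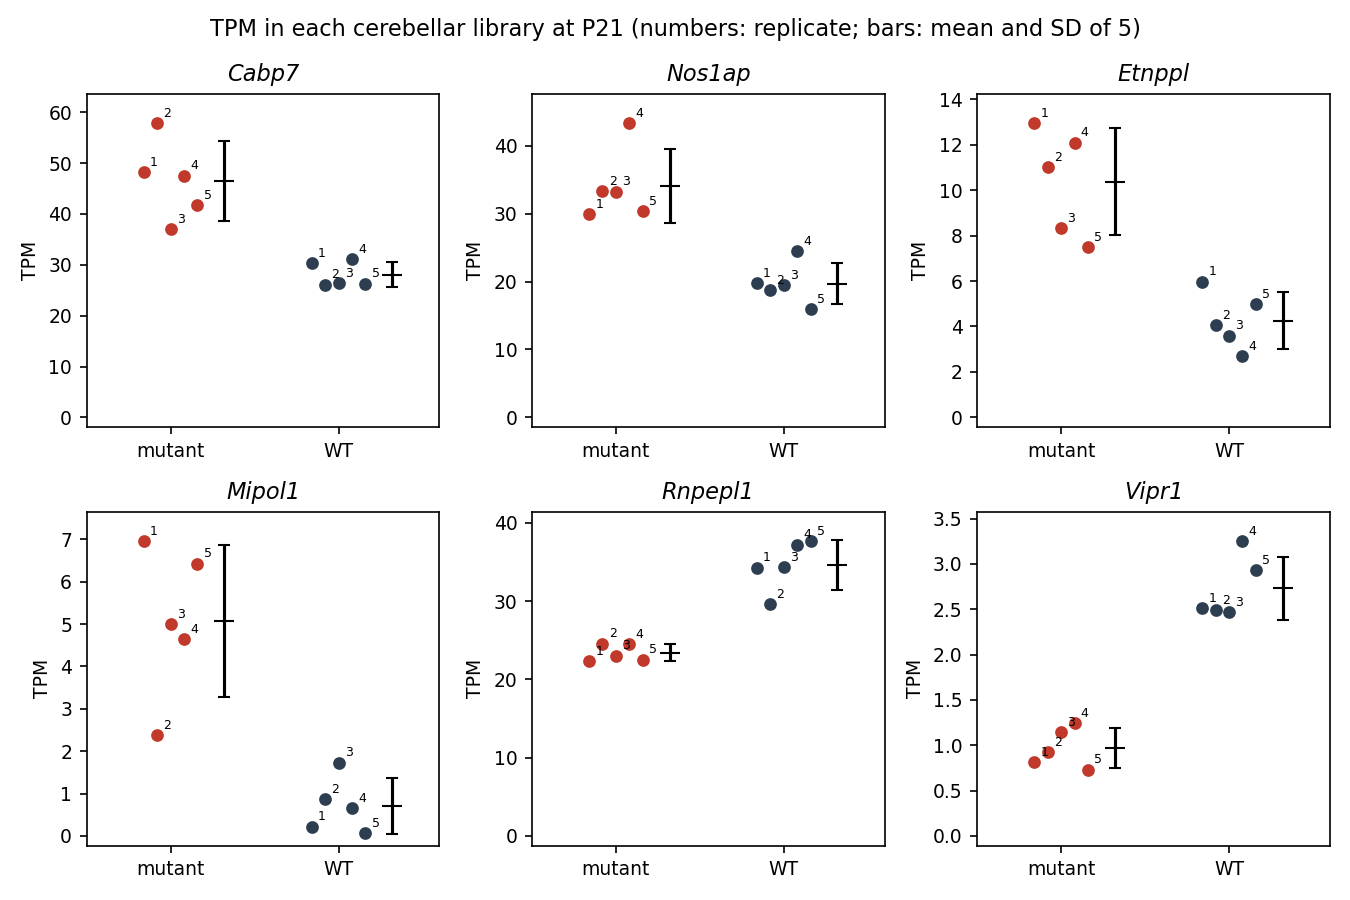
TPM of the 6 genes in each library, with 5 mutant libraries (red) left of 5 WT libraries (dark blue), replicate numbers beside the points and the mean and SD at their right. *Cabp7*, *Nos1ap*, *Etnppl* and *Mipol1* lie higher in the mutant and *Rnpepl1* and *Vipr1* lower, with the narrowest gap in TPM for *Mipol1*, whose lowest mutant library had 2.38 TPM and highest WT library 1.73 TPM.

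*Cabp7* encodes calneuron 2, an EF-hand protein of the Golgi and lysosomes that binds and inhibits phosphatidylinositol 4-kinase beta. Its position is 4736892 to 4746778 of chromosome 11, minus strand. It had 48.1, 57.9, 37.0, 47.5 and 41.7 TPM in mutant libraries 1 to 5, against 30.3, 26.1, 26.4, 31.2 and 26.3 TPM in WT libraries 1 to 5. The WT libraries lay close together, 3 of them within 26.1 to 26.4 TPM, and the mutant libraries were spread over a wider range above them. The means were 46.4 ± 7.87 TPM in mutant and 28.1 ± 2.48 TPM in WT cerebella (SD, n = 5 mice each), a ratio of 1.66 and a log2 fold change of 0.71 (standard error 0.13, 95% interval 0.42 to 1.01). *Zmat5*, a zinc finger gene on the opposite strand, shares 338 bp with *Cabp7*, or 12.9% of its exons, and although the libraries were made with a directional kit, whether the quantification used strand is not given in the sources used here. *Zmat5* had 34.2 TPM in mutant and 29.9 TPM in WT libraries, which overlapped (log2 fold change 0.24, limma adjusted p = 0.832, 95% interval -0.32 to 0.79).

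Relatives and partners of *Cabp7* were examined as a list of 20 genes of calcium sensors and of the phosphatidylinositol 4-kinases, of which 18 were measured. Of these, 11 lay above and 7 below 0 in log2 fold change, and 0 passed the adjusted threshold in either direction. The median was 0.14, against 0.048 over all genes tested, of which 55.99% lay above 0. Without WT library 5 the median was -0.037, where that of all genes was -0.037 as well. *Cabp2*, which encodes a calcium sensor known from hair cells and retina, was the single gene of the 18 with an unadjusted p under 0.05, as had 5.55% of all genes tested. It had 12.7, 15.2, 11.5, 10.4 and 14.7 TPM in mutant libraries 1 to 5, against 18.1, 21.3, 20.9, 20.5 and 38.2 TPM in WT libraries 1 to 5. The groups did not overlap, as for 1.22% of all genes tested, with WT library 5 far above the other WT libraries, and the log2 fold change was -0.84 (limma adjusted p = 0.779, 95% interval -1.30 to -0.38). *Pi4kb*, the kinase that CABP7 inhibits, had 23.7 ± 3.13 TPM in mutant and 21.9 ± 8.51 TPM in WT libraries, and its low WT value of 7.17 TPM was in library 5. *Caln1*, the closest relative of *Cabp7*, had 69.1 ± 7.72 TPM in mutant and 71.1 ± 5.60 TPM in WT libraries. The calmodulin genes *Calm2* and *Calm3* were the most abundant of the list, with 1491 ± 107 TPM in mutant and 1304 ± 348 TPM in WT libraries for *Calm2*, and 926 ± 42.0 TPM in mutant and 996 ± 83.8 TPM in WT libraries for *Calm3*. *Hpcal1*, which encodes a visinin-like calcium sensor, had 262 ± 13.7 TPM in mutant and 305 ± 65.9 TPM in WT libraries. These genes other than *Cabp2* overlapped between the genotypes.

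*Nos1ap* encodes an adaptor, also called CAPON, that binds neuronal nitric oxide synthase and links it to the GTPase Dexras1 and to synapsins. It covers 170302668 to 170589861 on the minus strand of chromosome 1, with 9 annotated transcripts that a TPM per gene does not separate. It had 29.96, 33.3, 33.2, 43.3 and 30.4 TPM in mutant libraries 1 to 5, against 19.8, 18.7, 19.5, 24.4 and 15.99 TPM in WT libraries 1 to 5. Library 4 was the highest of each genotype, and 4 of the 5 mutant libraries lay within 29.96 to 33.3 TPM. The means were 34.0 ± 5.42 TPM in mutant and 19.7 ± 3.05 TPM in WT cerebella (SD, n = 5 mice each), a ratio of 1.73 and a log2 fold change of 0.79 (standard error 0.15, 95% interval 0.46 to 1.11). *Gm7694*, a predicted gene on the same strand that overlaps the 3′ end of *Nos1ap*, shares 171 bp, or 2.36% of the exons of *Nos1ap*, and had 4.24 TPM in mutant and 4.88 TPM in WT libraries.

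*Nos1*, which encodes neuronal nitric oxide synthase, had a log2 fold change of the other sign from its adaptor. It had 13.3, 12.5, 11.5, 14.7 and 12.5 TPM in mutant libraries 1 to 5, against 12.3, 19.9, 21.7, 28.8 and 16.7 TPM in WT libraries 1 to 5. WT library 1 lay within the mutant range and the other WT libraries above it (log2 fold change -0.57, limma adjusted p = 0.779, 95% interval -1.03 to -0.11). Of 21 genes listed for nitric oxide and cyclic GMP signalling and for partners of NOS1AP, 19 were measured, 13 higher and 6 lower in the mutant by the sign of the log2 fold change (median 0.14). Without WT library 5 the median was 0.043, and with WT libraries 3 and 5 left out it was -0.057, where that of all genes was -0.094. None passed the adjusted threshold, and 3 had an unadjusted p under 0.05, 2 of them lower and 1 higher in the mutant, where 3.26% and 2.29% of all genes tested did so in those directions. Besides *Nos1* these were *Pde9a*, which encodes a phosphodiesterase of cyclic GMP, with 39.0 ± 4.62 TPM in mutant and 50.3 ± 5.24 TPM in WT libraries, and *Fdx1*. *Fdx1* encodes a mitochondrial ferredoxin, which is not a cyclic GMP signalling protein, and had 27.0 ± 4.40 TPM in mutant and 18.9 ± 6.30 TPM in WT libraries; it was named after its values were seen. *Dlg4*, which encodes the scaffold PSD-95 that also binds the synthase, had 144 ± 10.6 TPM in mutant and 158 ± 13.0 TPM in WT libraries. *Syn1* and *Syn2*, which encode synapsins, had 150 ± 7.99 and 149 ± 9.85 TPM in mutant libraries and 156 ± 21.05 and 163 ± 9.51 TPM in WT libraries. *Cpe*, the carboxypeptidase gene with the highest level of the list, had 720 ± 38.3 TPM in mutant and 675 ± 119 TPM in WT libraries. *Rasd1*, the gene of Dexras1, had 4.61 ± 2.22 TPM in mutant and 3.31 ± 1.97 TPM in WT libraries, with 0 listed in WT library 5, and its groups overlapped like those of all others in the list.

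*Vipr1*, the VPAC1 gene, had the lowest mean over all 10 libraries of the 6 genes, 1.85 TPM. Its position is 121642716 to 121672954 of chromosome 9, plus strand. It had 0.814, 0.927, 1.14, 1.25 and 0.730 TPM in mutant libraries 1 to 5, against 2.51, 2.49, 2.47, 3.25 and 2.93 TPM in WT libraries 1 to 5. Each WT library had at least 1.22 TPM more than the highest mutant library, and WT libraries 1 to 3 differed by less than 0.1 TPM. The means were 0.972 ± 0.218 TPM in mutant and 2.73 ± 0.348 TPM in WT cerebella (SD, n = 5 mice each), with WT 2.81 times the mutant, and a log2 fold change of -1.42 (standard error 0.31, 95% interval -2.10 to -0.73). At this level the added value matters, and with 1 TPM added in place of 0.1 the log2 fold change was -0.92. No annotated gene overlaps *Vipr1*. The next protein-coding gene upstream, *Lyzl4*, starts 620 bp away on the opposite strand and was under 0.5 TPM in every library, and that downstream, *Sec22c*, a vesicle transport gene, had 10.04 TPM in mutant and 9.31 TPM in WT libraries.

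*Vip*, the gene of the ligand VIP, was listed at 0 in all 10 libraries. *Adcyap1*, the gene of the ligand PACAP, had 4.58, 1.94, 2.92, 4.72 and 2.70 TPM in mutant libraries 1 to 5, against 3.37, 3.97, 3.64, 3.50 and 1.28 TPM in WT libraries 1 to 5, which overlapped. Of the sister receptors, *Adcyap1r1*, which encodes the PACAP receptor PAC1, had 41.8 ± 4.12 TPM in mutant and 43.1 ± 2.60 TPM in WT libraries (log2 fold change -0.049, 95% interval -0.28 to 0.18). *Vipr2*, which encodes VPAC2, had 1.51 ± 0.574 TPM in mutant and 1.46 ± 0.258 TPM in WT libraries (log2 fold change -0.030, 95% interval -0.88 to 0.82). As TPM is per transcript length, *Adcyap1r1* was the most abundant receptor gene of the 3 in both genotypes. Of 24 genes listed for ligands, receptors, accessory proteins and the cyclic AMP pathway, 21 were measured, 9 higher and 12 lower in the mutant by the sign of the log2 fold change (median -0.049), and 0 passed the adjusted threshold. The median was -0.170 without WT library 5 and -0.003 without mutant library 5. *Adcy3*, an adenylate cyclase gene, was the single one of the 21 with an unadjusted p under 0.05 (5.55% of all genes tested), with 5.42 ± 0.901 TPM in mutant and 9.05 ± 2.83 TPM in WT libraries. WT library 5, at 4.11 TPM, lay below all mutant libraries and the other WT libraries above them. *Ramp2*, which encodes a protein that modifies receptors of this class, had 59.3 ± 8.48 TPM in mutant and 71.7 ± 12.8 TPM in WT libraries. The most abundant of the list were *Gnas*, the stimulatory G protein gene, with 526.1 ± 95.5 TPM in mutant and 595 ± 85.3 TPM in WT libraries, and the cyclase gene *Adcy1*, with 314 ± 12.5 TPM in mutant and 351 ± 47.5 TPM in WT libraries.

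*Etnppl* encodes ethanolamine-phosphate phospho-lyase, which breaks phosphoethanolamine down and is known in the brain as an astrocyte gene. Its position is 130617448 to 130637521 of chromosome 3, plus strand, and no annotated gene overlaps it. It had 13.0, 11.0, 8.33, 12.1 and 7.49 TPM in mutant libraries 1 to 5, against 5.97, 4.07, 3.597, 2.71 and 4.97 TPM in WT libraries 1 to 5. The groups did not overlap, though both were spread, with 1.52 TPM between the lowest mutant library and WT library 1. The means were 10.4 ± 2.37 TPM in mutant and 4.26 ± 1.26 TPM in WT cerebella (SD, n = 5 mice each), a ratio of 2.43 and a log2 fold change of 1.28 (standard error 0.26, 95% interval 0.71 to 1.86). Markers of Bergmann glia and astrocytes had 7 of 12 log2 fold changes above 0, with a median of 0.042, and summed to 2856 to 3225 TPM in mutant and 2767 to 3173 TPM in WT libraries.

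Of 21 genes of ethanolamine and choline phospholipid metabolism, all 21 were measured, 13 higher and 8 lower in the mutant by the sign of the log2 fold change (median 0.094), and 0 passed the adjusted threshold. The median was 0.021 without WT library 5 and 0.18 without mutant library 1. It was -0.005 when each library was centred on its median. In that setting the median of all genes was -0.051, against 0.048 as reported. *Phykpl*, the nearest relative of *Etnppl*, which acts on phosphohydroxylysine, had 4.37, 5.97, 6.86, 6.52 and 4.93 TPM in mutant libraries 1 to 5, against 4.69, 5.28, 3.70, 3.34 and 1.96 TPM in WT libraries 1 to 5, which overlapped. *Cept1*, which encodes an enzyme of the last step of phosphatidylethanolamine synthesis, was the single one of the 21 with an unadjusted p under 0.05 (5.55% of all genes tested), with 14.5 ± 2.94 TPM in mutant and 7.98 ± 5.29 TPM in WT libraries. WT library 5, at 1.21 TPM, was its lowest. The genes of the enzymes that make and use phosphoethanolamine overlapped between the genotypes. *Etnk1*, the ethanolamine kinase gene, had 65.6 ± 6.04 TPM in mutant and 53.8 ± 17.6 TPM in WT libraries, and *Pcyt2*, the gene of the next and rate-limiting enzyme, 179 ± 24.7 TPM in mutant and 161 ± 31.97 TPM in WT libraries. *Pisd*, the gene of the mitochondrial route to phosphatidylethanolamine, had 23.5 ± 6.57 TPM in mutant and 29.4 ± 7.96 TPM in WT libraries. *Gde1*, a glycerophosphodiesterase gene, was the most abundant, with 203 ± 9.57 TPM in mutant and 207 ± 26.7 TPM in WT libraries.

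*Rnpepl1* encodes an aminopeptidase of the M1 family, related to aminopeptidase B, that removes single residues from the amino end of peptides. Its position is 92910783 to 92924384 of chromosome 1, plus strand. It had 22.3, 24.6, 23.0, 24.6 and 22.5 TPM in mutant libraries 1 to 5, against 34.3, 29.7, 34.3, 37.2 and 37.6 TPM in WT libraries 1 to 5. The mutant libraries were the tightest group of all 6 genes, with a coefficient of variation of 4.64%, and WT library 2 was the nearest to them. The means were 23.4 ± 1.09 TPM in mutant and 34.6 ± 3.19 TPM in WT cerebella (SD, n = 5 mice each), with WT 1.48 times the mutant, and a log2 fold change of -0.56 (standard error 0.11, 95% interval -0.80 to -0.32). Its nearest protein-coding neighbours on either side, *Dusp28* and *Capn10*, had 18.7 and 32.01 TPM in mutant libraries and 23.1 and 35.8 TPM in WT libraries, and both overlapped.

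Of 20 aminopeptidase and dipeptidyl peptidase genes, 18 were measured, 9 higher and 9 lower in the mutant by the sign of the log2 fold change (median 0.015), and 0 passed the adjusted threshold. The median was -0.019 without WT library 5 and 0.20 without WT library 2. It was -0.084 when each library was centred on its median. In that setting the median of all genes was -0.051, against 0.048 as reported. *Rnpep*, which encodes aminopeptidase B, had 33.9 ± 3.95 TPM in mutant and 37.4 ± 7.12 TPM in WT libraries (log2 fold change -0.13, 95% interval -0.45 to 0.20). *Lta4h*, which encodes the related leukotriene A4 hydrolase, was the single gene of the 18 with an unadjusted p under 0.05 (5.55% of all genes tested) and had a log2 fold change of the other sign from *Rnpepl1*, with 28.8 ± 3.09 TPM in mutant and 21.01 ± 5.53 TPM in WT libraries. *Xpnpep1*, an aminopeptidase P gene, had 26.9 ± 2.45 TPM in mutant and 17.8 ± 8.61 TPM in WT libraries, with 5.32 TPM in WT library 5. *Npepps*, the puromycin-sensitive aminopeptidase gene and the most abundant of the list, had 94.9 ± 15.8 TPM in mutant and 94.9 ± 30.5 TPM in WT libraries, and the dipeptidyl peptidase gene *Dpp8* 55.5 ± 11.2 TPM in mutant and 61.6 ± 31.6 TPM in WT libraries.

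**Figure D2:**
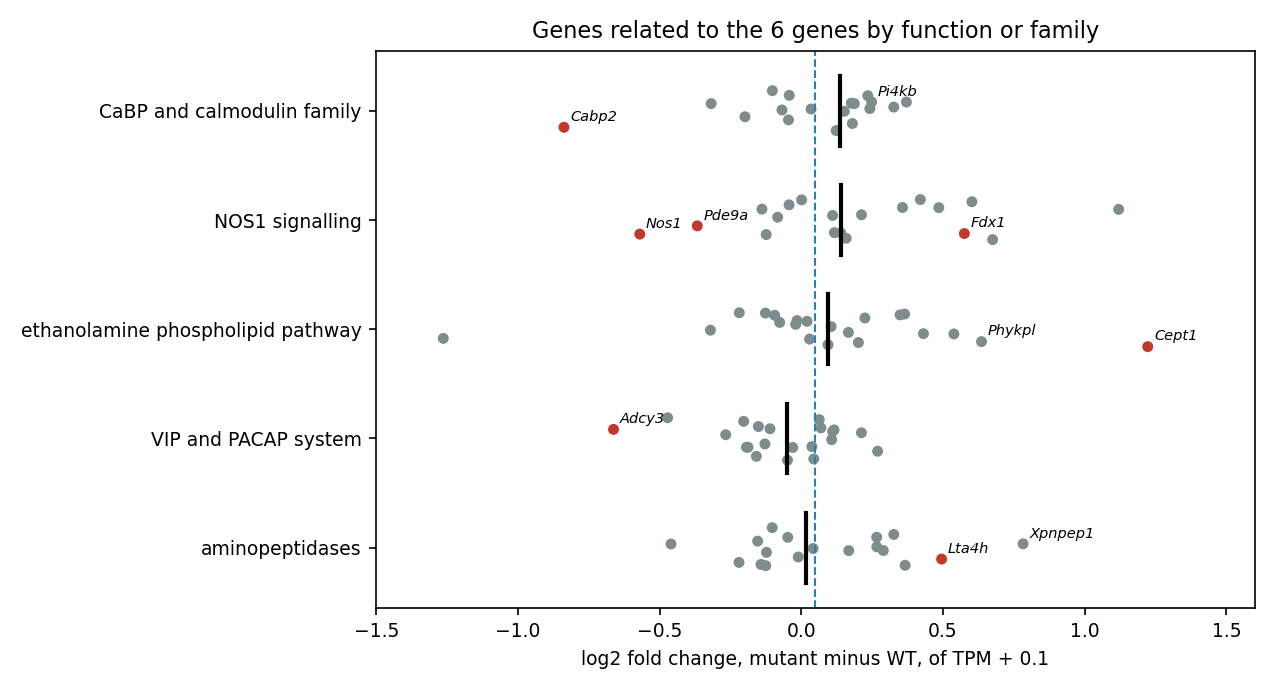
Log2 fold change (mutant minus WT) of the measured genes of the 5 lists, with 1 point per gene, red where the unadjusted p is under 0.05, a black bar at the median of each list and a dashed line at the median of all genes tested, 0.048. The list medians lie between -0.049 and 0.14, and no gene passes the adjusted threshold.

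*Mipol1* is named after a human limb malformation, mirror-image polydactyly. It spans 57230427 to 57497199 on the plus strand of chromosome 12 and has 10 annotated transcripts. It had 6.95, 2.38, 4.99, 4.64 and 6.43 TPM in mutant libraries 1 to 5, against 0.223, 0.874, 1.73, 0.663 and 0.0639 TPM in WT libraries 1 to 5. The mutant libraries were all at 2.38 TPM or more and the WT libraries were spread from near 0 to 1.73 TPM, with a coefficient of variation of 92.4%. The means were 5.08 ± 1.79 TPM in mutant and 0.711 ± 0.657 TPM in WT cerebella (SD, n = 5 mice each), a ratio of 7.14 and a log2 fold change of 3.04 (standard error 0.62, 95% interval 1.68 to 4.41). With 1 TPM added in place of 0.1 the log2 fold change was 1.85, and without WT library 5 it was 2.58. *Prps1l3*, a gene on the same strand that overlaps the 5′ end of *Mipol1*, shares 185 bp, or 1.98% of the exons of *Mipol1*. It had 9.45 TPM in mutant and 9.12 TPM in WT libraries, which overlapped (log2 fold change 0.087, 95% interval -0.40 to 0.58). The nearest protein-coding genes on either side, *Slc25a21* and *Foxa1*, averaged 0.0797 TPM in mutant and 0.0341 TPM in WT libraries for the first and were listed at 0 for the second.

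**Figure D3:**
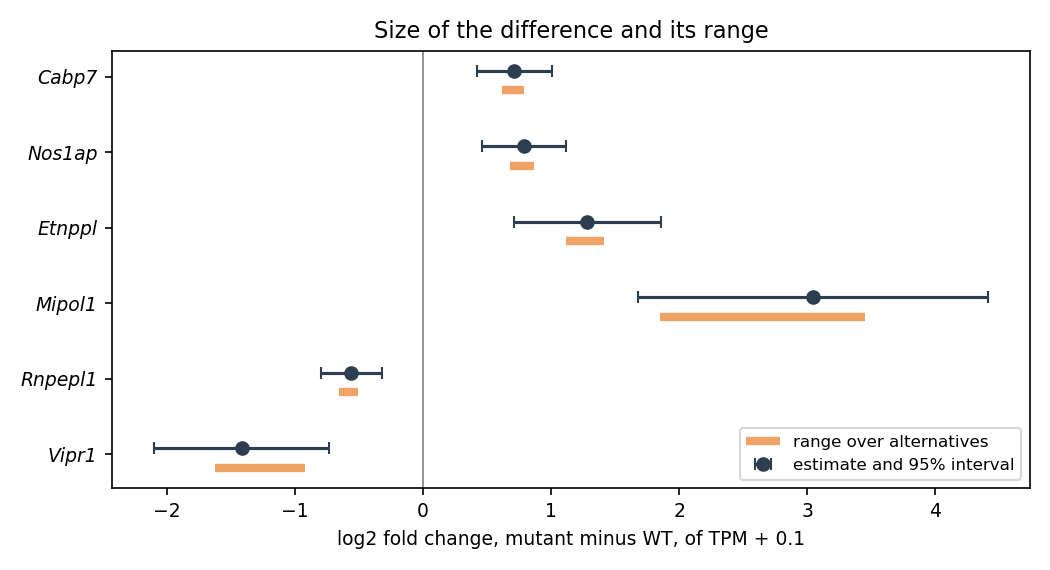
Log2 fold change (mutant minus WT) of the 6 genes as points with 95% intervals from limma, with the range over the alternative settings as orange bars. The bars are widest for *Mipol1* (1.85 to 3.45) and *Vipr1* (-1.63 to -0.92), the genes of lowest level. The genes were chosen by p in this contrast, so the fold changes tend to be too large. The intervals cannot be read at their stated level.

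The 3 genes of highest level had the smallest differences on the log2 scale. Those above 20 TPM on average, *Cabp7* (37.2 TPM), *Rnpepl1* (29.0 TPM) and *Nos1ap* (26.9 TPM), had log2 fold changes of 0.71, -0.56 and 0.79. *Etnppl* (7.32 TPM), *Mipol1* (2.89 TPM) and *Vipr1* (1.85 TPM) had 1.28, 3.04 and -1.42. The median over all genes tested was 11.1 TPM. A small p needs a larger difference where the spread is larger, so the choice itself can give this order of differences. Nothing is read from it. A choice by p favours genes with little spread within a genotype, and 5 of the 6 genes were below the median within-genotype SD of 0.446 on the log2 scale, from 0.108 for *Rnpepl1* to 0.386 for *Etnppl*, whereas *Mipol1* had 1.06.

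**Figure D4:**
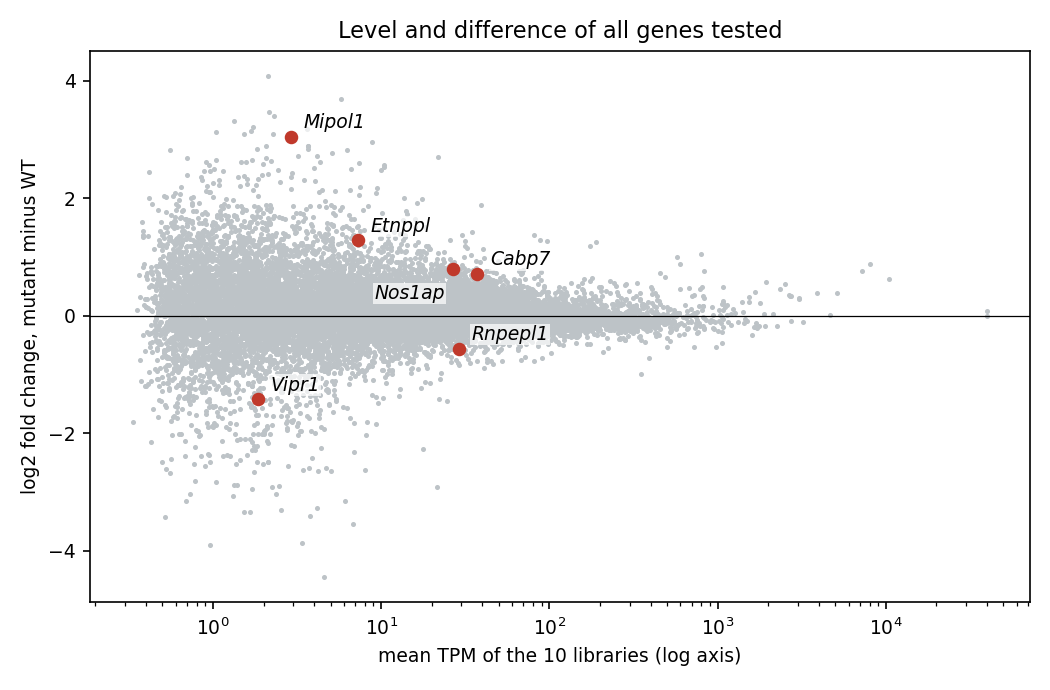
Mean TPM of the 10 libraries (log axis) against the log2 fold change (mutant minus WT) for the 17168 genes tested, with the 6 genes in red. The cloud of all genes widens toward low levels, where *Mipol1* and *Vipr1* lie.

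The amount of variation within a genotype entered the p-values by which the genes were chosen, and which libraries were high or low within a genotype is given here as a description. After the mean of each genotype was taken away, library 4 of each genotype was the highest for *Nos1ap* (0.36 in mutant and 0.32 in WT, log2 scale) and for *Vipr1* (0.35 in mutant and 0.25 in WT), although these genes differ between the genotypes in opposite directions. *Etnppl* was highest in library 1 of each genotype, at 0.35 in mutant and 0.53 in WT. *Mipol1* varied most, with -0.97 in mutant library 2, 1.63 in WT library 3 and -1.85 in WT library 5. WT library 5, which stood apart in its sums, lay within 0.29 of the WT mean for the other 5 genes. It was the lowest WT library for *Nos1ap* (-0.29) and the highest for *Rnpepl1* (0.12), each away from the mutant values. For *Cabp7*, *Etnppl* and *Vipr1* it was neither the lowest nor the highest.

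**Figure D5:**
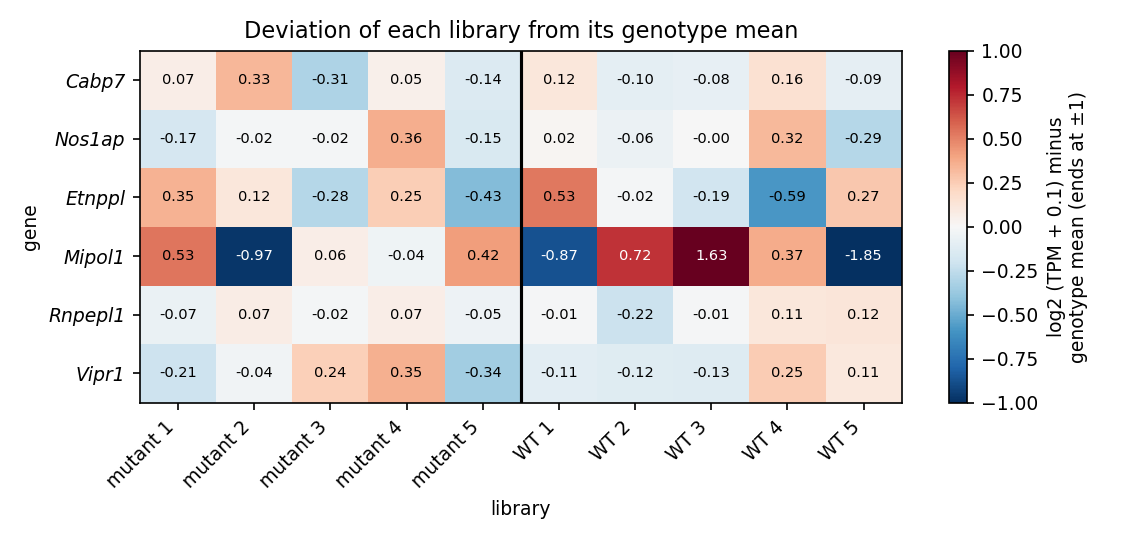
Deviation of each library from the mean of its genotype, in log2(TPM + 0.1), for the 6 genes (rows) in 5 mutant libraries left of 5 WT libraries, with colours ending at 1 in either direction. *Rnpepl1* departs by at most 0.22 and *Mipol1* by up to 1.85.

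The protein-coding genes that followed each of the 6 most closely within the genotypes were taken from 10162 candidates by Pearson's r over the 10 libraries, which describes likeness and, with so many candidates, is high by search alone. For *Cabp7* these were *Xrcc5* (0.92), a DNA repair gene, *Camk2g* (0.91), a subunit gene of calmodulin-dependent kinase II, and *Tspoap1* (0.90). For *Nos1ap* they were *Prkra* (0.92), *Eif2b4* (0.90), a translation initiation factor gene, and *Cep164* (0.90), a gene of the ciliary base. For *Vipr1* they were *Tacc2* (0.92), a microtubule protein gene, *Immt* (0.90), a mitochondrial inner membrane gene, and the kinase gene *Rps6ka4* (0.89). For *Etnppl* they were *Phactr3* (0.88), *Fam136a* (0.88) and *Prps1* (0.85). For *Rnpepl1* they were the potassium channel gene *Kcnh1* (0.95) and *Ndufaf2* (0.92), an assembly factor gene of complex I. For *Mipol1* they were *Ss18l2* (0.91), *Gne* (0.90), a gene of sialic acid synthesis, and the cation channel gene *Trpm3* (0.89). The libraries of each of these genes overlapped between the genotypes.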

How the data were processed

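RNA-seq of cerebella from 5 mutant and 5 WT mice at P21 was used. The authors trimmed reads with Trimmomatic, aligned them to GRCm38 with HISAT2 and deposited TPM per Ensembl gene from StringTie. TPM are scaled per library and transcript length, so depth is unknown. The libraries were directional, and the annotation release and the strand setting of the quantification are not given in the sources used here, and read counts and DESeq2 results were not analysed here. GENCODE M21 (GRCm38) gave symbols and positions for 53256 of 53447 identifiers.

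Genes with at least 0.5 TPM in at least 5 of 10 libraries were compared as log2(TPM + 0.1), a scale that understates changes of low genes, with limma (version 3.58.1, R version 4.3.3), without covariates, with a variance trend and Benjamini-Hochberg adjustment over all genes tested (threshold 0.05). The model was also run on simulated data with independent noise in each gene and no outlying library such as WT library 5. The outcome is not reported here. Fold changes are mutant minus WT. The 6 genes and the lists were chosen with earlier results of these data known. Named genes were the 6 genes, fixed partners, and per list the 2 smallest p and 2 highest means, with nearest and overlapping genes, the 3 of most alike pattern and those next in order of p. Alternatives were the added value, filter, scaling, covariates, array weights, replicate block and left-out libraries. A few genes that this rule names are not reported here.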

Additional observations from a re-analysis of the deposited data

Results flagged for a closer look

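Among 18 groups of 5 libraries (the 6 genes, *Dscam* and 2 library sums), 2 had a library far from the others of its genotype, where chance gives 0.9. *Nos1ap* was at 43.3 TPM in mutant library 4, against 33.3 TPM in the next mutant library, and without this library its log2 fold change was 0.70. The listed TPM summed to 805869 in mutant library 1, against 783212 in the next mutant library.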

How the results depend on the processing

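Over 23 alternatives (22 for *Vipr1* and *Mipol1*, which a filter of at least 1 TPM in all libraries left out), the 6 genes did not change sign and did not pass the adjusted threshold, with adjusted p between 0.317 and 0.919 in limma. Log2 fold changes ran from 0.61 to 0.79 for *Cabp7*, 0.68 to 0.87 for *Nos1ap*, 1.12 to 1.41 for *Etnppl*, 1.85 to 3.45 for *Mipol1*, -1.63 to -0.92 for *Vipr1* and -0.66 to -0.51 for *Rnpepl1*. The direction of chosen genes is no sign of stability. Leaving out 1 library gave 0 to 1 genes past the adjusted threshold, the 1 being *1500004A13Rik* without mutant library 4, and 704 to 1634 genes with an unadjusted p under 0.05 (1586 without WT library 1 and 1634 without WT library 2). The list medians ran over left-out libraries from -0.037 to 0.19 for calcium sensors, 0.043 to 0.22 for nitric oxide signalling, 0.021 to 0.18 for ethanolamine phospholipids, -0.170 to -0.003 for VIP and PACAP and -0.019 to 0.20 for aminopeptidases, each lowest without WT library 5. With mitochondrial mRNA added to the model the medians were -0.085 for calcium sensors, -0.064 for nitric oxide signalling and -0.134 for ethanolamine phospholipids. They were -0.184 for VIP and PACAP and -0.134 for aminopeptidases, where that of all genes was -0.104. With WT libraries 3 and 5 left out they were, in the same order, -0.107, -0.057, -0.099, -0.167 and -0.101, where that of all genes was -0.094. With the replicate number as a block, 0 genes passed the adjusted threshold and 1094 had an unadjusted p under 0.05. Libraries of the same number correlated at 0.00789 to 0.0978 in their deviations, and 3 of 10 correlated best with their own number. With 5 libraries per genotype these values cannot decide whether the number pairs mice, and the labels do not say so. The unknown depth limits what can be said of *Vipr1* and *Mipol1*.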

Other observations

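The surroundings of the 6 genes were described within 2 Mb on either side, a window set after values were seen. Of 291 other genes tested there, 19 (6.53%) had an unadjusted p under 0.05, against 5.55% of all genes. Their log2 fold changes were above 0 in 149 and below in 142, where 55.99% of all genes tested were above 0. Such a p was found in 7 of 58 genes around *Nos1ap*, 6 of 89 around *Cabp7* and 4 of 67 around *Vipr1*. It was found in 1 of 16 around *Etnppl*, 1 of 39 around *Rnpepl1* and 0 of 22 around *Mipol1*. Those around *Vipr1* included the myelin gene *Mobp*, 1.46 Mb away, and *Ctnnb1*. The latter encodes beta-catenin and had 238 TPM on average in mutant and 169 TPM in WT libraries. None of the 6 genes lies on chromosome 16, which carries *Dscam*.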
